A study of Zea mays with 18 samples.

Results

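The GRAS family transcription factors of the maize kernel were followed in 2 inbred lines, DAN3130 and JI63, at 3 stages of kernel formation. Members were the loci of the expression table with a gene name holding GRAS-transcription factor, GRAS transcription factor or scarecrow, and 77 of 77704 loci met this rule. These 77 loci cover 78 genes, since GRAS82 and GRAS84 lie in a locus they share, whose reads cannot be split between them. The rule also asked for the words dwarf8 and dwarf9, which matched 0 loci. The table writes these genes as dwarf plant8 and dwarf plant9, and these 2 loci are described beside the members and left out of every count of members. In the text GRAS37 stands for the locus named GRAS-transcription factor 37 in the table, and so on for the other numbers.

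GRAS proteins are transcription regulators of plants that share a conserved carboxy-terminal domain, and the family was named after GAI, RGA and SCARECROW of Arabidopsis. The DELLA branch, to which the products of maize dwarf8 and dwarf9 belong, holds back growth until gibberellin, a growth hormone, binds its receptor and the DELLA protein is broken down. SCARECROW and SHORT-ROOT act together in the radial patterning of root and leaf, and other branches act in light signalling, meristem upkeep and the branching of shoots in Arabidopsis, tomato and rice. In cereal seeds gibberellin is best known for starting the breakdown of reserves at germination, and it acts there against abscisic acid. No role is given here for a member known only by its number.

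Kernels of both lines were taken at 3 times, DAP 24 and DAP 35 (days after pollination) and maturity, after the plants had turned yellow, and each line and stage is represented by 3 libraries. The 6 groups are DAN3130 on DAP 24 (replicates 8, 10 and 11), on DAP 35 (12, 13 and 14) and at maturity (33, 34 and 35), and JI63 on DAP 24 (22, 24 and 25), on DAP 35 (26, 27 and 29) and at maturity (39, 40 and 41). Values of a group are given in this order of replicates. Both lines are untreated inbreds with no transgene, grown at Langfang in the same summer, and the reads were aligned to the genome of a different inbred, B73, so that a sequence difference between a line and B73 can lower its count. The study describes 3 biological replicates per stage and also says that RNA was pooled, and the sources do not say how pools and replicates relate. A whole kernel holds embryo, endosperm and the maternal pericarp together. In such bulk samples fewer cells of a type and less RNA per cell cannot be told apart.

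Libraries held 9428728 to 133264978 reads in loci. All values below are normalized counts, the unit deposited by the study, and a change is a difference of log2(normalized count + 1) with its standard error (SE). A locus was called changed at a Benjamini-Hochberg adjusted p under 0.05, computed with limma over the 29191 loci with a mean above 10. Rose and fell are used of called changes alone. The summed level of 18 loci named for endosperm proteins per library ranged from 708900 to 1797900 (DAP 24), 201951 to 856841 (DAP 35) and 462 to 26141 (mature). Of these loci, 7 to 9 had no read in a given group, floury2 and the 27-kDa zein protein among them in every group. The sum of 9 loci named for embryo proteins ranged from 359751 to 719678 (DAP 24), 982767 to 2807860 (DAP 35) and 446810 to 2913950 (mature). The 4 loci of the basal transfer layer of the endosperm went from sums of 5739 to 8439 on DAP 24 to 0 to 29.2 at maturity, and the 26 loci of green tissue summed to 317 to 3277 throughout. A pair of libraries stood apart at the members. JI63 DAP 35 replicate 27 was the highest of its group at 22 of the 32 tested members (68.8%, against 39.5% of all tested loci), and its embryo sum was 2807860 beside 1183080 and 1016160. DAN3130 mature replicate 35 was the highest at 18 of 32 (56.2% against 34.3%), with an embryo sum of 1941000 beside 446810 and 901994. Replicates of mature DAN3130 varied most, with a median SD of 0.95 on the log2 scale over the 32 members (0.88 over all tested loci), while the other groups had 0.30 to 0.56 over the members.

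Of the 77 members, 32 passed the filter, 25 had reads but a mean of at most 9.61, and 20 had no read in any library. Among the 57 members with reads 56.1% passed, against 51.0% of all loci with reads. The 18 libraries hold 698909358 reads together, and a count of 0 allows up to 3 reads among them, by counting error alone. The loci without a read were GRAS3, GRAS6, GRAS13, GRAS14, GRAS18, GRAS22, GRAS24, GRAS28, GRAS33, GRAS34, GRAS35, GRAS43, GRAS54, GRAS57, GRAS59, GRAS60, GRAS68, GRAS71, GRAS72 and GRAS83. Chromosome 4 carried 15 members, of which 9 had no read and 5 were tested, while all 6 members of chromosome 3 had reads and 5 were tested. On AGPv4, the build of the deposited table, GRAS43, GRAS68, GRAS72, GRAS83 and GRAS34 lie side by side on chromosome 4 between 1040831 and 1061134, and none had a read. The neighbours GRAS24 and GRAS13 (chromosome 4, 190499638 to 190505583) and GRAS57 and GRAS60 (chromosome 6, 40168662 to 40183289) were without reads as well. The remaining adjacent pair, GRAS86 and GRAS29 (chromosome 10, 1452722 to 1458449), was transcribed, and both were tested. Reads shared by near-identical copies can be dropped in counting, and the part of this in the empty loci was not tested.

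The 25 members below the filter had their highest library in different groups. It was a JI63 DAP 24 library for GRAS85, GRAS70, scarecrow-like1, GRAS16, GRAS9, GRAS36, GRAS27 and GRAS75, and a mature JI63 library for GRAS25, GRAS61, GRAS51, GRAS5 and GRAS73. For GRAS77, GRAS42, GRAS81 and GRAS63 it was DAN3130 on DAP 24, for GRAS56 DAN3130 on DAP 35, for GRAS11, GRAS64, GRAS30 and GRAS74 mature DAN3130, and for GRAS62, GRAS17 and GRAS58 JI63 on DAP 35. The highest single value among them was 46.3, of GRAS85 in JI63 DAP 24 replicate 22. GRAS64 had 29 reads in the DAN3130 libraries and 0 in those of JI63, although JI63 was sequenced to 441726350 reads and DAN3130 to 257183008.

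Levels of different loci were compared per kilobase of exon. Of the tested members 6 had a mean above 1000 normalized counts, 19 had 100 to 1000 and 7 less than 100, and 23 members had reads in all 18 libraries. Per kilobase, GRAS45 was the highest member in DAN3130 on DAP 24 (849 normalized counts per kilobase) and on DAP 35 (1026), with GRAS67 next (558 and 824). In JI63 the highest was GRAS69 on DAP 24 (1197) and GRAS46 on DAP 35 (840.2, lifted by replicate 27), followed there by GRAS69 (799). At maturity GRAS37 led in both lines, with 3273 per kilobase in DAN3130 and 4726 in JI63, ahead of GRAS67 in DAN3130 (654) and GRAS46 in JI63 (689). So the leading member was another one at maturity than in either immature stage, in each line.

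**Figure D1:**
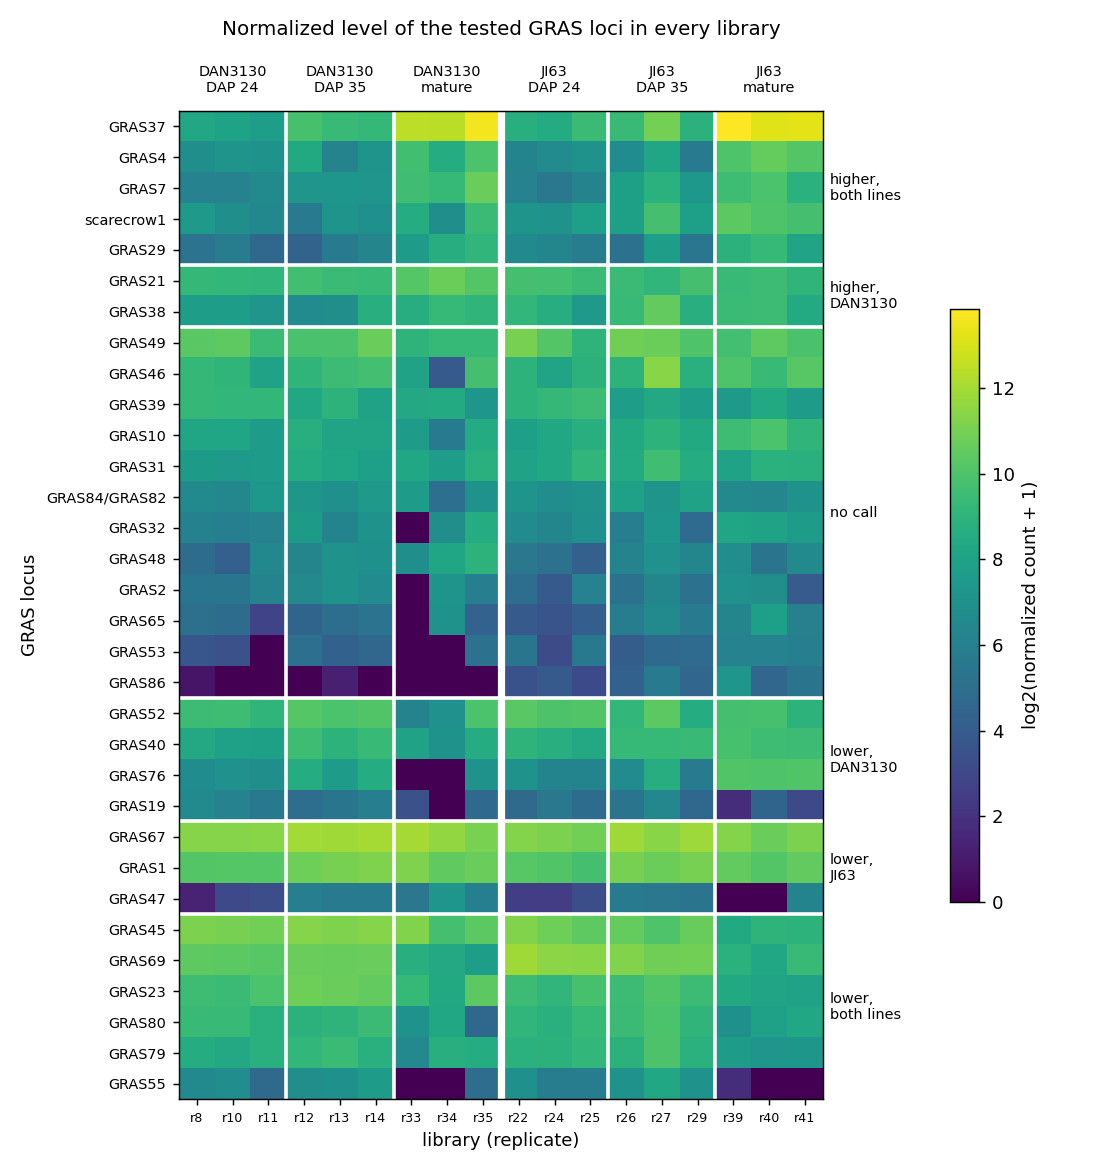
Levels of the 32 tested GRAS loci in each of the 18 libraries, as log2(normalized count + 1) in colour, with rows grouped by the calls from DAP 35 to maturity ("no call" means called in neither line for that step). The top block of 5 loci brightens in the mature columns of both lines, the bottom block of 6 darkens, and GRAS86 is dark across all DAN3130 columns.

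Summed over the 77 members, the normalized count was 14630 ± 920.0 (SD, n = 3) in DAN3130 on DAP 24, then 20770 ± 1040 on DAP 35 and 23510 ± 6240 in mature kernels. In JI63 the sums were 17270 ± 2350, 20970 ± 4240 and 28030 ± 3540. As a share of each library's total the family took 0.0613% ± 0.00437 in DAN3130 on DAP 24, then 0.0848% ± 0.00444 for DAP 35 and 0.0684% ± 0.0115 for maturity, and in JI63 0.0703% ± 0.0127, 0.0838% ± 0.00591 and 0.0583% ± 0.00324. The order of maturity and DAP 35 thus turned with the scale, and no test was made on these sums. GRAS37 supplied 1.77% ± 0.26 of the family's counts in DAN3130 on DAP 24 and 3.55% ± 0.80 on DAP 35, then 32.2% ± 7.84 at maturity. Its share in JI63 was 2.91% ± 1.33, 4.56% ± 2.76 and 40.0% ± 5.79. These are shares of counts, not corrected for gene length, and within a library they do not depend on the scaling between libraries.

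**Figure D2:**
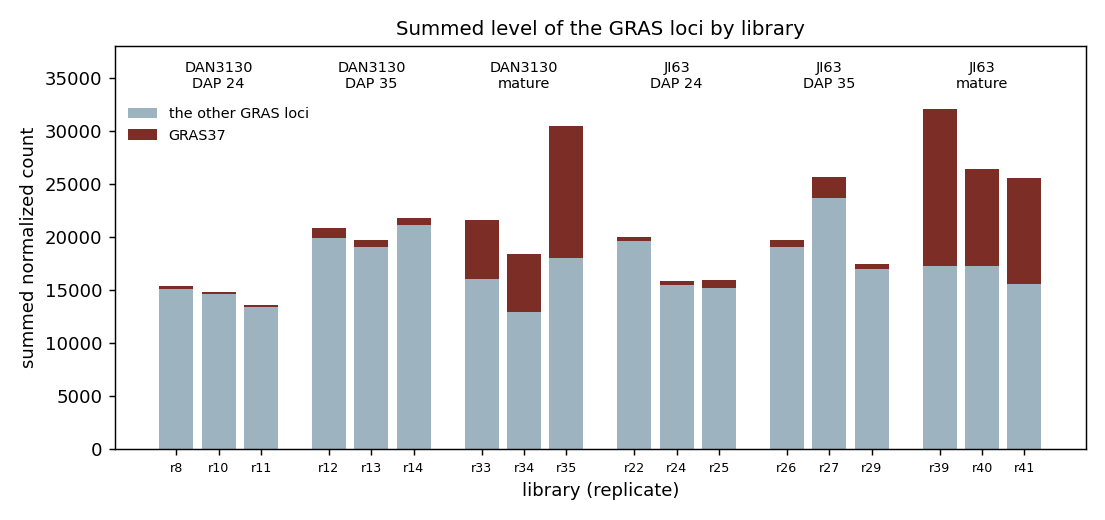
Summed normalized count of the 77 GRAS loci in each library, split into GRAS37 and the other loci. GRAS37 is a thin cap on the bars of DAP 24 and DAP 35 and a large part of the 6 mature bars.

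From DAP 24 to DAP 35 the number of members called depended on which libraries set the spread. In DAN3130 (comparison I) GRAS40 and GRAS1 rose, 2 of 32, and 0 fell, while 4.41% of all tested loci rose and 2.14% fell. In JI63 (comparison II) GRAS7 and GRAS1 rose and GRAS39 fell, against 4.27% and 4.82% of all tested loci. At an unadjusted p under 0.05, 8 members were higher and 1 lower on DAP 35 in DAN3130 (10.1% and 8.49% of all tested loci), and 5 higher and 2 lower in JI63 (9.93% and 10.5%). Fitted with the 2 groups compared alone, without the wide spread of the mature libraries, 13 members were called in DAN3130 and 6 in JI63, and in the 12 immature libraries 9 and 7. These fits set the filter on their own libraries, so GRAS77 and GRAS42, outside the 32, were among those called in DAN3130. The count of 13 is then above that of 6 for the step to maturity in DAN3130. The shares of all loci called in these fits were not counted, so the counts cannot be read as particular to the members. The members leaned upward with or without a call. Of the 32, 27 had a positive change in DAN3130 (44.8% of all tested loci did) and 24 in JI63 (50.2%), with 20 positive in both lines. The share of all tested loci positive in both was not counted, so the 20 cannot be read as agreement between the lines. The median change of the members was 0.60 in DAN3130 and 0.51 in JI63 on the log2 scale, beside -0.04 and 0.0042 over all tested loci. Libraries of the 2 lines are separate, so comparisons I and II share none. In JI63, however, DAP 35 replicate 27 was the highest of its group at 22 of the 32 members, against 39.5% of all tested loci. The positive changes were not counted without it.

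GRAS1 (Zm00001d047813, chromosome 9, 142473442 to 142484153) rose in both lines. Its normalized counts in DAN3130 were 1154, 1161 and 1173 (DAP 24), and 1754, 2082 and 2334 (DAP 35). In JI63 they were 1213, 1110.3 and 887 (DAP 24), and 2092, 1723 and 2070.1 (DAP 35). All 6 DAP 35 libraries lay above all 6 DAP 24 libraries. The rise was 0.81 ± 0.20 on the log2 scale in DAN3130 (adjusted p = 0.0206) and 0.88 ± 0.20 for JI63 (adjusted p = 0.00987). The first call was lost with equal totals (adjusted p = 0.101), by the limits of the study (a change under 1) and without DAN3130 DAP 24 replicates 8, 10 or 11 or DAN3130 DAP 35 replicates 13 or 14 (adjusted p from 0.0676 to 0.0798). The second was lost by the limits of the study (a change under 1) and without JI63 DAP 24 replicate 25 (adjusted p = 0.0578). At maturity the counts were 2346, 1395 and 1666 in DAN3130 and 1473, 1141 and 1456 in JI63, where GRAS1 fell by 0.54 ± 0.20 (adjusted p = 0.0362), a call lost with no filter (adjusted p = 0.0515), in edgeR (adjusted p = 0.0512), by the limits of the study (a change under 1) and without JI63 DAP 35 replicates 26 or 29 or JI63 mature replicate 40 (adjusted p from 0.104 to 0.137).

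GRAS40 (Zm00001d034664, chromosome 1, 299203465 to 299206303) rose in comparison I and then fell in DAN3130. DAN3130 held 328, 241 and 234 (DAP 24), 764, 493 and 659 (DAP 35), and 253, 135 and 384 (mature). JI63 held 522, 429 and 332 (DAP 24), 628, 617 and 660.2 (DAP 35), and 893, 739 and 713 (mature). In DAN3130 the level went up and then came down again, with every DAP 35 library above the 6 others, while in JI63 the 3 mature libraries were the highest. The early rise in DAN3130 was 1.25 ± 0.32 (adjusted p = 0.0286), lost without DAN3130 DAP 24 replicates 10 or 11 or DAN3130 DAP 35 replicates 12 or 14 (adjusted p from 0.0768 to 0.121). In JI63 the same step was 0.59 ± 0.32 (adjusted p = 0.335), and the test of the difference between the lines gave no call (II minus I, -0.65 ± 0.45, adjusted p = 0.624). From DAP 35 to maturity GRAS40 fell by 1.41 ± 0.32 in DAN3130 (adjusted p = 0.00178), a call lost with the compared groups alone (adjusted p = 0.0565). It changed by 0.29 ± 0.32 in JI63 (adjusted p = 0.498). These steps differed, by 1.70 ± 0.45 (adjusted p = 0.0204), a call lost with equal totals (adjusted p = 0.0837), in edgeR (adjusted p = 0.0539), with the compared groups alone (adjusted p = 0.0719) and without DAN3130 DAP 35 replicate 12 (adjusted p = 0.0565). At maturity the line difference was -1.72 ± 0.32 (adjusted p = 0.000554), in every setting tried.

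GRAS7 (Zm00001d042472, chromosome 3, 168768221 to 168770465) rose in both steps in JI63 and in the step to maturity in DAN3130. The JI63 libraries held 69.5, 45.0 and 71.7 (DAP 24), 230.4, 457 and 164 (DAP 35), and 756, 975 and 462 (mature). Those of DAN3130 held 70.5, 69.4 and 97.9 (DAP 24), 151, 152 and 151 (DAP 35), and 792, 623 and 1649 (mature). No DAP 24 library of either line reached its line's DAP 35 range, and no DAP 35 library reached the mature range. In JI63 the first step was 2.07 ± 0.43 (adjusted p = 0.00588), kept in every setting tried, and the second 1.43 ± 0.43 (adjusted p = 0.0123), lost with equal totals (adjusted p = 0.322) and without JI63 DAP 35 replicate 29 or JI63 mature replicate 40 (adjusted p from 0.0569 to 0.0708). In DAN3130 the first step was 0.94 ± 0.43 (adjusted p = 0.247) and the second 2.62 ± 0.43 (adjusted p = 0.000113), the latter kept in every setting tried. Neither step was called different between the lines (adjusted p = 0.451 and 0.208).

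GRAS39 (Zm00001d017129, chromosome 5, 186410076 to 186414125) was the only member to fall between the immature stages in the fit of all 6 groups. In JI63 its counts were 501, 598 and 728 (DAP 24), and 210.1, 327 and 214 (DAP 35). The corresponding DAN3130 values were 595, 581 and 586 (DAP 24), and 314, 489 and 253 (DAP 35). In both lines the groups did not overlap, as was so for 40.6% of all tested loci in DAN3130 and 40.3% in JI63. In JI63 it fell by 1.29 ± 0.36 (adjusted p = 0.0327), a call lost with equal totals (adjusted p = 0.0606) and without JI63 DAP 24 replicates 22, 24 or 25 or JI63 DAP 35 replicates 26 or 29 (adjusted p from 0.0536 to 0.135). The change in DAN3130 was -0.79 ± 0.36 (adjusted p = 0.243). At maturity the counts were 328, 358 and 157 in DAN3130 and 175, 342 and 197 in JI63, with no call from DAP 35.

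The difference between the lines in this first step, II minus I, was called at 0 of 32 members by limma, by edgeR and by DESeq2 (0.706% of all tested loci were called with the change higher in JI63 and 1.66% with it lower). At an unadjusted p under 0.05 by limma, 0 members were higher (6.07% of all tested loci) and 1 was lower (7.75%). With the compared groups alone and in the 12 immature libraries, GRAS69 was called lower in JI63 (-0.89, adjusted p = 0.0129 by limma in each). GRAS42, outside the 32, was called higher in both of these fits and with equal totals. With no filter 2 members were called.

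From DAP 35 to maturity the family split into members that rose and members that fell. In DAN3130 (comparison III) 7 members rose and 10 fell, and 19.2% of all tested loci rose and 31.5% fell. In JI63 (comparison IV) 5 rose and 9 fell, against 17.8% and 27.8%. As shares of the 32 tested members these are 21.9% and 31.2% in DAN3130 and 15.6% and 28.1% in JI63, close to the shares over all tested loci. GRAS37, GRAS4, GRAS29, GRAS7 and scarecrow1 rose in both lines. GRAS55, GRAS69, GRAS45, GRAS23, GRAS80 and GRAS79 fell in both, and by limma 0 members were called in opposite directions, while in edgeR GRAS76 was (-2.63 in III and 2.57 in IV, adjusted p = 0.0445 and 0.0485). The shares of all tested loci called in both lines were not counted, so these lists cannot be read as particular to the members. Comparisons III and IV share no library, but III shares the DAN3130 DAP 35 libraries with I, and IV those of JI63 with II. The members' median change was -0.89 in DAN3130 and -0.14 in JI63, beside -0.43 and -0.36 over all tested loci, and 17 of the 32 had changes of the same sign in both lines, called or not. The share of all tested loci with the same sign in both lines was not counted. The split depends on the scale. With libraries set to equal totals the log2 changes of all loci shifted by -0.465 in III and -0.94 in IV, and the calls were 4 higher and 17 lower at maturity in DAN3130, and 3 higher and 16 lower in JI63. Leaving out DAN3130 mature replicate 35 gave 5 rises and 13 falls in III, and leaving out JI63 DAP 35 replicate 27 gave 6 rises and 7 falls in IV. Fitted with the 2 groups compared alone, which gives mature DAN3130 its own wide spread, III had 4 rises and 2 falls.

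**Figure D3:**
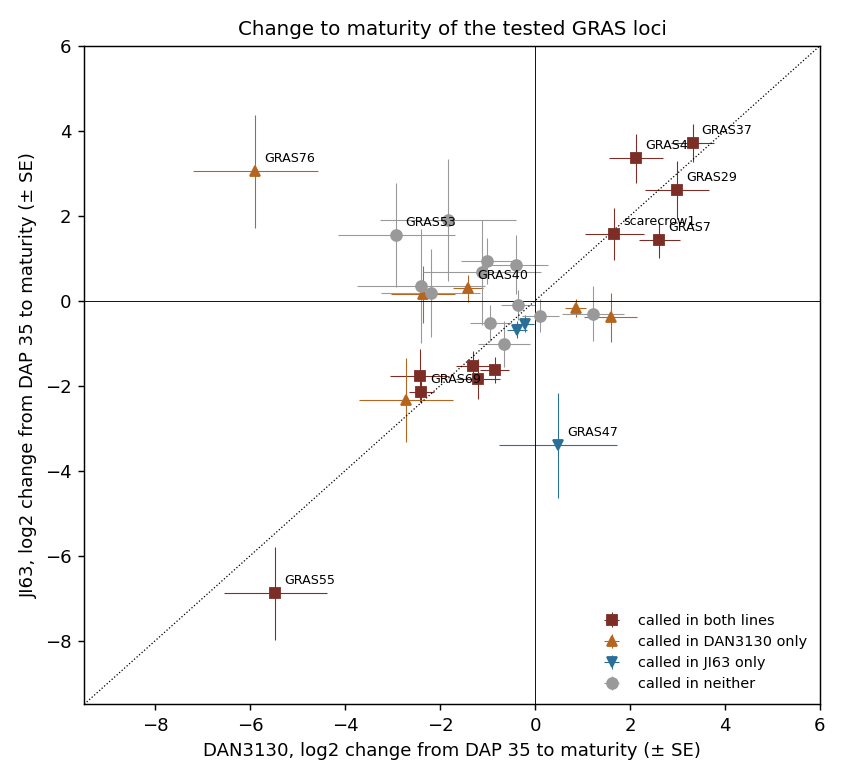
Change of each tested GRAS locus from DAP 35 to maturity in DAN3130 (horizontal axis) and JI63 (vertical axis), as log2 change with standard errors, with the dotted line marking equal changes. The 5 loci called higher in both lines sit in the upper right, the 6 called lower in both in the lower left with GRAS55 farthest out, and GRAS76 is farthest toward the upper left.

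GRAS37 (Zm00001d005029, chromosome 2, 154743078 to 154746570) had the largest rise of the called members in each line. In DAN3130 its normalized counts were 316, 257 and 210.3 (DAP 24), 915, 680.0 and 610.0 (DAP 35), and 5607, 5454 and 12485 (mature). In JI63 they were 404, 362 and 709 (DAP 24), 636, 1987 and 477 (DAP 35), and 14828, 9178 and 9995 (mature). The 6 mature libraries were all far above the 12 immature ones, the highest of which was replicate 27. To maturity it rose by 3.32 ± 0.45 in DAN3130 (adjusted p = 2.2e-05) and by 3.71 ± 0.45 in JI63 (adjusted p = 9.03e-06), on the log2 scale, and both calls held in every setting tried. The steps from DAP 24 to DAP 35 were 1.49 ± 0.45 and 0.85 ± 0.45, neither called in the fit of all 6 groups (adjusted p = 0.0642 and 0.329). That of DAN3130 was called in DESeq2 (adjusted p = 0.0181) and with equal totals (adjusted p = 0.0303). It was also called in the 12 immature libraries (adjusted p = 0.0278) and with the compared groups alone (adjusted p = 0.000744). The line difference was not called at any stage (adjusted p = 0.203, 0.82 and 0.309) nor in the step to maturity (adjusted p = 0.723). Within mature DAN3130, the library with the highest GRAS37 level, replicate 35, was also the one with the highest embryo sum, and on DAP 35 in JI63 this was replicate 27, 3.57 times the mean of its partners. The part of embryo content in the rise was not tested.

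GRAS4 (Zm00001d042127, chromosome 3, 152192162 to 152195145) stayed low until DAP 35 and was high in mature kernels. DAN3130 gave 118, 141 and 131 (DAP 24), 335, 71.2 and 145 (DAP 35), and 804, 383 and 958 (mature). JI63 gave 73.8, 101 and 131 (DAP 24), 107, 281 and 54.1 (DAP 35), and 1053, 1518 and 1119.7 (mature). Mature libraries exceeded all immature ones in each line, with the narrowest gap in DAN3130, between replicate 12 on DAP 35 and replicate 34 at maturity. It rose by 2.13 ± 0.58 in DAN3130 (adjusted p = 0.00622) and by 3.35 ± 0.58 in the other line (adjusted p = 0.000217), called in every setting tried.

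GRAS29 (Zm00001d023248, chromosome 10, 1456929 to 1458449) also rose to maturity in both lines. Its counts in DAN3130 were 37.9, 57.9 and 24.8 (DAP 24), 19.9, 49.7 and 77.7 (DAP 35), and 193, 389.6 and 553 (mature), and in JI63 99.7, 80.3 and 57.3 (DAP 24), 36.1, 216 and 43.2 (DAP 35), and 482, 627 and 268 (mature). All mature libraries were above all immature ones of their line, the nearest being JI63 DAP 35 replicate 27, at 5.44 times the mean of its partners. The rises of 2.99 ± 0.68 in DAN3130 (adjusted p = 0.00177) and of 2.62 ± 0.68 in the other line (adjusted p = 0.00517) were called in every setting tried.

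The locus scarecrow1 (Zm00001d052380, chromosome 4, 188747587 to 188751193), whose product patterns the ground tissue of root and leaf, also had its highest libraries at maturity. DAN3130 held 174, 120.1 and 89.1 (DAP 24), 54.0, 144 and 124 (DAP 35), and 386, 117 and 705 (mature). For JI63 the values were 141, 133 and 226 (DAP 24), 231, 858 and 229 (DAP 35), and 1324, 1043 and 864 (mature). In JI63 the 3 mature libraries were above the rest, with replicate 27 just under them, whereas in DAN3130 replicate 34 at maturity lay inside the immature range. It rose by 1.67 ± 0.62 in DAN3130 (adjusted p = 0.0341) and by 1.57 ± 0.62 in the other line (adjusted p = 0.0497). The first call was lost with no filter (adjusted p = 0.0596), with equal totals (adjusted p = 0.0891), with the compared groups alone (adjusted p = 0.145) and without DAN3130 DAP 35 replicate 12 or DAN3130 mature replicates 33 or 35 (adjusted p from 0.0786 to 0.154). The second was lost with a pseudocount of 0.5 (adjusted p = 0.0526), with no filter (adjusted p = 0.0736), with equal totals (adjusted p = 0.393), in edgeR (adjusted p = 0.0956), in DESeq2 (adjusted p = 0.0572) and without JI63 DAP 35 replicates 26 or 29 or JI63 mature replicates 39, 40 or 41 (adjusted p from 0.0682 to 0.179). Replicate 27 of JI63 DAP 35 was 3.73 times the mean of its partners at this locus. Its relative scarecrow-like1 (Zm00001d009646, chromosome 8, 74204668 to 74206740) was not tested. It was at 10.2, 3.21 and 3.85 in JI63 on DAP 24, at 0.98 in DAN3130 DAP 24 replicate 10, and at 0 in the other libraries. That is 29 reads in JI63 and 3 in DAN3130, and none after DAP 24.

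**Figure D4:**
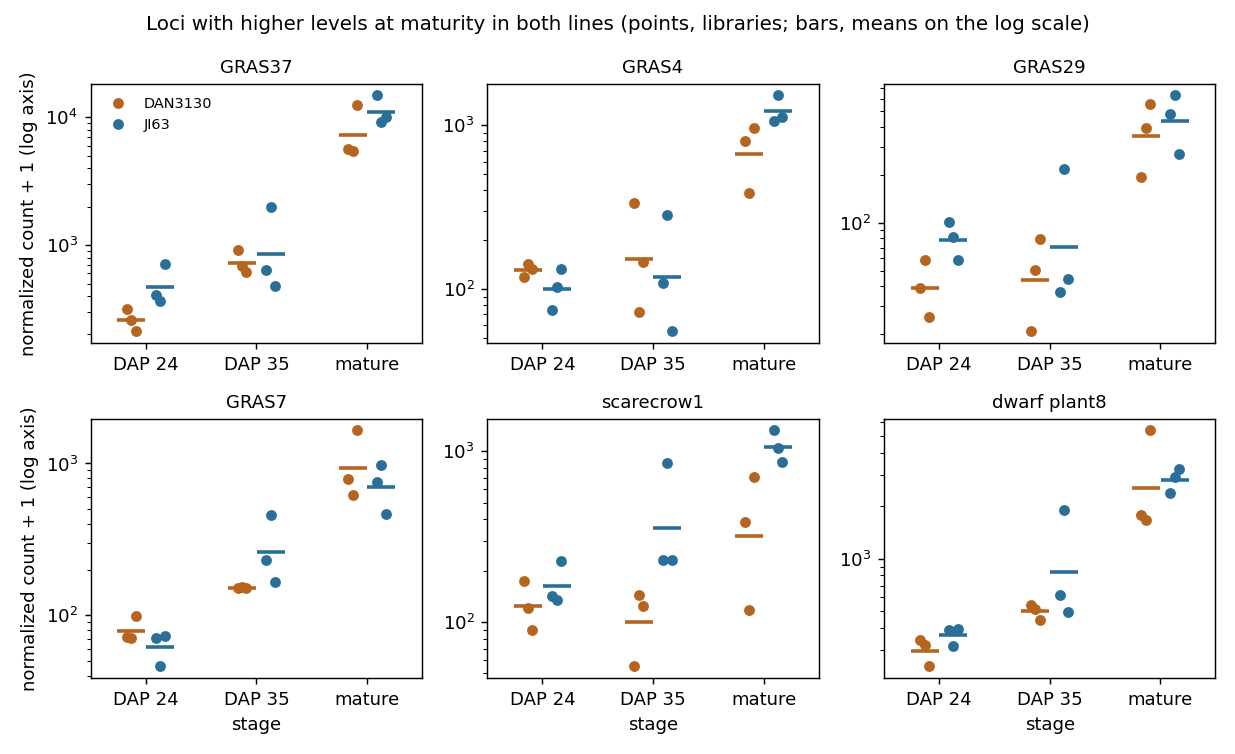
Normalized count + 1 (log axis) by stage for the 5 GRAS loci that rose to maturity in both lines and for dwarf plant8, with a point per library and a bar at the mean of the log values. The mature points of GRAS37, between 5454 and 14828, lie above all earlier points, and the highest JI63 point on DAP 35 is replicate 27 in each panel.

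GRAS55 (Zm00001d013385, chromosome 5, 10169946 to 10171655) fell furthest of the members in JI63, and in DAN3130 its fall came after that of GRAS76. In DAN3130 it held 98.0, 110.3 and 26.3 (DAP 24), 115, 121 and 191 (DAP 35), and 0, 0 and 30.2 (mature). JI63 had 123, 57.8 and 57.8 (DAP 24), 138, 313 and 136 (DAP 35), and 2.58, 0 and 0 (mature). Every immature library had reads, and 4 of the 6 mature libraries had none. It fell by 5.47 ± 1.09 in DAN3130 (adjusted p = 0.000631) and fell by 6.89 ± 1.09 in JI63 (adjusted p = 0.0001), called in every setting tried, and the fitted size depends on the pseudocount. By pooled reads JI63 went from 1774 on DAP 35 to 1 at maturity, which at equal depth is a ratio with a 95% exact binomial interval of 35.8 to 7900, for counting error alone.

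GRAS69 (Zm00001d038225, chromosome 6, 151983403 to 151987196) fell from a high level. Its DAN3130 counts were 1359, 1329.7 and 1240.0 (DAP 24), 1622, 1617 and 1642 (DAP 35), and 408, 322 and 220.3 (mature). In JI63 they were 3823, 2748 and 2731 (DAP 24), 2427, 1825 and 1953 (DAP 35), and 457, 317 and 679 (mature). Mature libraries lay below all immature ones in both lines, and on DAP 24 the JI63 libraries were well above those of DAN3130. It fell by 2.40 ± 0.26 in DAN3130 (adjusted p = 2.56e-06) and fell by 2.15 ± 0.26 in JI63 (adjusted p = 8.85e-06), in every setting tried. The line difference on DAP 24 was -1.23 ± 0.26 as DAN3130 minus JI63 (adjusted p = 0.00222), also in every setting tried, and was -0.34 ± 0.26 on DAP 35 (adjusted p = 0.439) and -0.59 ± 0.26 at maturity (adjusted p = 0.0918), where it was not called.

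GRAS45 (Zm00001d048199, chromosome 9, 152291815 to 152298372) fell in both lines. JI63 libraries went through 2386, 1806 and 1379.6 (DAP 24), 1543, 1039 and 1606 (DAP 35), and 335, 513 and 497 (mature). DAN3130 libraries had 2189, 2073 and 1953 (DAP 24), 2606, 2295 and 2609 (DAP 35), and 2373, 868 and 1300.1 (mature). In JI63 the mature values were all below the immature ones, while in DAN3130 replicate 33 at maturity stayed at the level of DAP 35. It fell by 1.64 ± 0.31 in JI63 (adjusted p = 0.000448), in every setting tried, and fell by 0.85 ± 0.31 in DAN3130 (adjusted p = 0.0305), a call lost with no filter (adjusted p = 0.0536), in DESeq2 (adjusted p = 0.0577), with the compared groups alone (adjusted p = 0.127), by the limits of the study (a change under 1) and without DAN3130 DAP 35 replicates 12, 13 or 14 or DAN3130 mature replicates 34 or 35 (adjusted p from 0.0501 to 0.149). The difference between these steps was -0.79 ± 0.43 (adjusted p = 0.247). At maturity GRAS45 was higher in DAN3130 by 1.65 ± 0.31 (adjusted p = 0.000528), in every setting tried.

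The other members called lower in both lines were GRAS23, GRAS80 and GRAS79. GRAS23 fell by 1.31 ± 0.36 in DAN3130 (adjusted p = 0.00746), a call lost with the compared groups alone (adjusted p = 0.0792), and fell by 1.54 ± 0.36 in JI63 (adjusted p = 0.00273). GRAS80 fell by 2.43 ± 0.63 in DAN3130 (adjusted p = 0.00452), a call lost with the compared groups alone (adjusted p = 0.0748), and fell by 1.76 ± 0.63 in JI63 (adjusted p = 0.0319), the second lost without JI63 DAP 35 replicates 26 or 27 or JI63 mature replicates 39 or 40 (adjusted p from 0.054 to 0.133). GRAS79 fell by 1.20 ± 0.47 in DAN3130 (adjusted p = 0.0422) and fell by 1.83 ± 0.47 in JI63 (adjusted p = 0.00455), the first lost with no filter (adjusted p = 0.0732), in edgeR (adjusted p = 0.076), in DESeq2 (adjusted p = 0.0751), with the compared groups alone (adjusted p = 0.195) and without DAN3130 DAP 35 replicates 12 or 13 or DAN3130 mature replicate 33 (adjusted p from 0.0927 to 0.219). GRAS67 fell by 0.68 ± 0.21 in JI63 (adjusted p = 0.0145), a call lost by the limits of the study (a change under 1) and without JI63 DAP 35 replicates 26 or 29 or JI63 mature replicate 40 (adjusted p from 0.0565 to 0.0752), and had a change of -0.38 ± 0.21 in DAN3130 (adjusted p = 0.143).

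GRAS76 (Zm00001d051461, chromosome 4, 159541582 to 159544080) fell in DAN3130 and did not follow that course in JI63. DAN3130 held 107, 129.9 and 119.8 (DAP 24), 385, 192 and 382 (DAP 35), and 0, 0 and 134 (mature). JI63 held 131, 73.9 and 75.6 (DAP 24), 104, 399.6 and 54.1 (DAP 35), and 1097, 1070.3 and 1103 (mature). The mature JI63 libraries were the highest of all 18 and close together, whereas 2 of the 3 mature DAN3130 libraries had no read and replicate 35 had 124 reads. In DAN3130 it fell by 5.90 ± 1.32 (adjusted p = 0.00162), a call lost with the compared groups alone (adjusted p = 0.0567), and in JI63 the change was 3.04 ± 1.32 (adjusted p = 0.0728), which was called in edgeR (adjusted p = 0.0485) and with the compared groups alone (adjusted p = 0.00679). The steps differed by 8.94 ± 1.87 (adjusted p = 0.00502), and the mature lines by -7.73 ± 1.32 (adjusted p = 0.000258). These sizes rest on the libraries at 0 and on the pseudocount. DESeq2 gave changes of -2.77, 5.34 and -4.56 for the 3 comparisons and no adjusted p, and pooled reads in DAN3130 went from 1063 on DAP 35 to 124 at maturity, a ratio of 4.42 at equal depth (95% exact binomial interval 3.67 to 5.37, counting error alone). The library with reads, replicate 35, was the one with the highest embryo sum and the deepest of its group (37739888 reads beside 11891237 and 9428728). The part of either in its reads was not tested.

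GRAS19 (Zm00001d021973, chromosome 7, 167371997 to 167373775) fell in DAN3130. There it had 94.3, 70.0 and 48.2 (DAP 24), 31.2, 40.3 and 60.1 (DAP 35), and 9.66, 0 and 25.9 (mature), and in JI63 26.9, 46.6 and 28.4 (DAP 24), 38.9, 83.8 and 24.0 (DAP 35), and 2.58, 20.7 and 7.30 (mature). Mature libraries were the lowest in both lines. It fell by 2.72 ± 0.99 in DAN3130 (adjusted p = 0.0313), lost in edgeR (adjusted p = 0.139), in DESeq2 (adjusted p = 0.0702), with the compared groups alone (adjusted p = 0.197) and without DAN3130 DAP 35 replicates 13 or 14 or DAN3130 mature replicate 34 (adjusted p from 0.0635 to 0.164). The change in JI63 was -2.34 ± 0.99 (adjusted p = 0.0646), and was called in DESeq2 (adjusted p = 0.0207) and with equal totals (adjusted p = 0.00978). GRAS52 also fell in DAN3130, by 2.37 ± 0.68 (adjusted p = 0.00856), lost in edgeR (adjusted p = 0.106), in DESeq2 (adjusted p = 0.0577) and with the compared groups alone (adjusted p = 0.0873), with a change of 0.15 ± 0.68 in JI63 (adjusted p = 0.906).

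GRAS47 (Zm00001d041498, chromosome 3, 124366863 to 124370875) fell in JI63. Its JI63 counts were 4.85, 4.82 and 9.15 (DAP 24), 49.3, 43.9 and 39.1 (DAP 35), and 0, 0 and 75.5 (mature). In DAN3130 they were 1.48, 7.20 and 8.76 (DAP 24), 59.7, 49.7 and 49.5 (DAP 35), and 43.4, 152 and 61.6 (mature). Both lines were low on DAP 24 and higher on DAP 35, and at maturity 2 JI63 libraries had no read while the third had the highest value of its line. It fell by 3.40 ± 1.24 (adjusted p = 0.0344), a call lost with a pseudocount of 5 (adjusted p = 0.0579), in edgeR (adjusted p = 0.622), in DESeq2 (adjusted p = 0.604), with the compared groups alone (adjusted p = 0.126) and without JI63 DAP 35 replicates 26, 27 or 29 or JI63 mature replicates 39 or 40 (adjusted p from 0.0704 to 0.163). The change was -0.81 in edgeR and -0.79 in DESeq2. The mature lines differed by 4.15 ± 1.24 (adjusted p = 0.0158), again lost in edgeR (adjusted p = 0.302), in DESeq2 (adjusted p = 0.219), with the compared groups alone (adjusted p = 0.197) and without DAN3130 mature replicate 34 or JI63 mature replicates 39 or 40 (adjusted p from 0.0509 to 0.0797).

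GRAS21 (Zm00001d030500, chromosome 1, 139650998 to 139656805) and GRAS38 (Zm00001d021946, chromosome 7, 166768024 to 166771400) rose to maturity in DAN3130. GRAS21 had 605, 582 and 549 (DAP 24), 815, 707 and 658 (DAP 35), and 1159, 1728 and 1127 (mature) there, and 871, 855 and 702 (DAP 24), 708, 553 and 867 (DAP 35), and 635, 716 and 528 (mature) in JI63. Mature DAN3130 was above the other 5 groups. It rose by 0.86 ± 0.22 (adjusted p = 0.00375), a call lost with equal totals (adjusted p = 0.251), with the compared groups alone (adjusted p = 0.051) and by the limits of the study (a change under 1), and changed by -0.17 ± 0.22 in JI63 (adjusted p = 0.578). The steps differed by -1.02 ± 0.30 (adjusted p = 0.0358), which was lost in edgeR (adjusted p = 0.0768), with the compared groups alone (adjusted p = 0.128) and without DAN3130 DAP 35 replicates 13 or 14 or JI63 DAP 35 replicates 26 or 29 or DAN3130 mature replicate 34 or JI63 mature replicates 39 or 41 (adjusted p from 0.0547 to 0.104). At maturity GRAS21 was higher in DAN3130 by 1.08 ± 0.22 (adjusted p = 0.00102), a call lost with the compared groups alone (adjusted p = 0.0601). GRAS38 had 215, 217 and 149 (DAP 24), 101, 113 and 415 (DAP 35), and 396, 613 and 539.9 (mature) in DAN3130 and 571, 395 and 175 (DAP 24), 675, 1455 and 416 (DAP 35), and 694, 727 and 358 (mature) in JI63. On DAP 35 its 3 JI63 libraries lay above those of DAN3130, replicate 29 of JI63 just above replicate 14. Its rise in DAN3130 was 1.59 ± 0.57 (adjusted p = 0.0284), lost with no filter (adjusted p = 0.0511), with equal totals (adjusted p = 0.0981), in edgeR (adjusted p = 0.0875), with the compared groups alone (adjusted p = 0.0877) and without DAN3130 DAP 35 replicates 12 or 13 or DAN3130 mature replicates 34 or 35 (adjusted p from 0.0581 to 0.124). On DAP 35 the difference was -2.14 ± 0.57 (adjusted p = 0.0109), lost without DAN3130 DAP 35 replicates 12 or 13 or JI63 DAP 35 replicate 27 (adjusted p from 0.0543 to 0.0658).

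**Figure D5:**
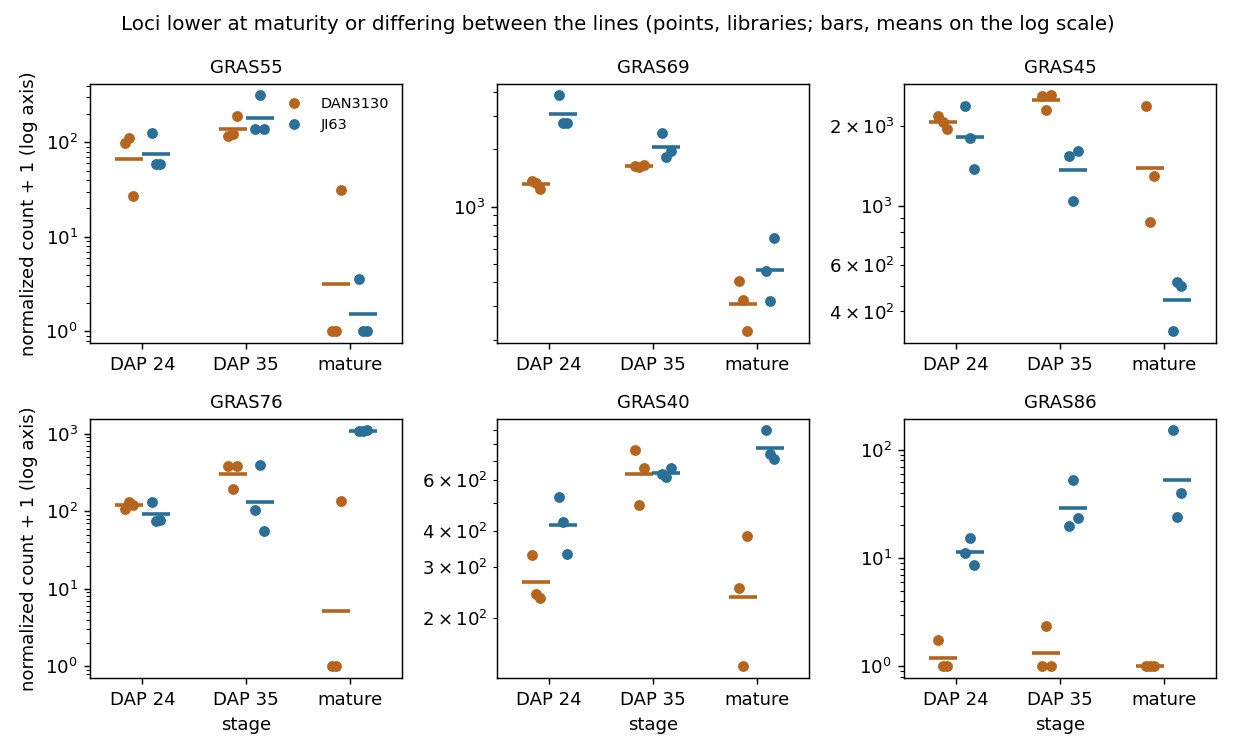
Normalized count + 1 (log axis, a different range in each panel) by stage for GRAS55, GRAS69 and GRAS45, which fell to maturity in both lines, and for GRAS76, GRAS40 and GRAS86, with a point per library and a bar at the mean of the log values. At maturity the JI63 points of GRAS76, GRAS40 and GRAS86 all lie above those of DAN3130, and points at 1 are libraries without a read.

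Between the lines, 2 members were called on DAP 24, 3 on DAP 35 and 12 at maturity, an order that turned with the compared groups alone (9, 4 and 4). On DAP 24, 0 members were higher in DAN3130 and GRAS86 and GRAS69 were lower, while 11.2% of all tested loci were higher and 13.6% lower. On DAP 35, 0 were higher and GRAS86, GRAS38 and scarecrow1 were lower, against 11.3% and 11.9%. At maturity 5 were higher and 7 lower in DAN3130, against 15.6% and 21.5%. At an unadjusted p under 0.05 the counts were 0 higher and 4 lower on DAP 24 (15.4% and 18.2% of all tested loci), then 2 and 3 for DAP 35 (15.9% and 16.8%), and 6 and 10 in mature kernels (19.1% and 26.8%). Median differences of the members, DAN3130 minus JI63, were -0.20, -0.06 and -0.49 on the log2 scale, beside -0.01, -0.06 and -0.13 over all tested loci. With equal totals all log2 differences at maturity shifted by 0.494, and 7 members were then higher and 5 lower in DAN3130. Without JI63 DAP 35 replicate 27, or without DAN3130 DAP 35 replicate 12, the count on DAP 35 was 1 member.

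GRAS86 (Zm00001d023247, chromosome 10, 1452722 to 1454992), the neighbour of GRAS29, was the only member called between the lines at all 3 stages. In DAN3130 it had 0.742, 0 and 0 (DAP 24), 0, 1.34 and 0 (DAP 35), and 0 in all 3 libraries (mature). In JI63 it had 10.2, 14.5 and 7.70 (DAP 24), 18.9, 51.3 and 22.4 (DAP 35), and 149.6, 22.8 and 38.9 (mature). All 9 JI63 libraries had reads, and the 9 DAN3130 libraries had 2 reads between them. Pooled reads were 44 in JI63 against 1 in DAN3130 on DAP 24, a ratio of 49.2 at equal depth (95% exact binomial interval 8.37 to 1980), and 270 against 1 on DAP 35, a ratio of 74.7 (13.3 to 2960). Both intervals cover counting error alone. At maturity JI63 was at least 38.1-fold higher, taking 3 reads over the group as the limit for the DAN3130 libraries without a read. By limma the differences were -3.25 ± 0.69, -4.45 ± 0.69 and -5.71 ± 0.69 (adjusted p = 0.00205, 0.000144 and 8.15e-06). The DAP 35 and mature differences were called in every setting tried, and that of DAP 24 in all except the fit of the compared groups alone, in which GRAS86 was under the filter and not tested. Its neighbour GRAS29 was not called between the lines at any stage (adjusted p = 0.352, 0.559 and 0.755). Whether the DAN3130 copy is absent, altered or silent cannot be told apart from counts against the B73 genome.

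On DAP 35 scarecrow1 was lower in DAN3130, with a difference of -1.84 ± 0.62 (adjusted p = 0.0418), lost with the compared groups alone (adjusted p = 0.0538) and without DAN3130 DAP 35 replicates 12 or 14 or JI63 DAP 35 replicate 27 (adjusted p from 0.0646 to 0.212). It was lower at maturity as well, with -1.74 ± 0.62 (adjusted p = 0.0378), lost with no filter (adjusted p = 0.067), with equal totals (adjusted p = 0.104), in edgeR (adjusted p = 0.0895), with the compared groups alone (adjusted p = 0.123) and without DAN3130 mature replicate 34 or JI63 mature replicates 39, 40 or 41 (adjusted p from 0.0577 to 0.17).

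Among the mature kernels the members higher in DAN3130 were GRAS47, GRAS48, GRAS45, GRAS23 and GRAS21, and those lower were GRAS76, GRAS86, GRAS53, GRAS10, GRAS52, scarecrow1 and GRAS40. GRAS48 (Zm00001d048588, chromosome 4, 712461 to 714473) had 29.0, 18.3 and 87.6 (DAP 24), 78.1, 134 and 123 (DAP 35), and 118, 279.8 and 502 (mature) in DAN3130. Its JI63 libraries held 43.6, 37.0 and 17.8 (DAP 24), 73.4, 128 and 82.5 (DAP 35), and 108, 39.3 and 94.9 (mature). The lines overlapped on DAP 24 and DAP 35 and were apart at maturity, where DAN3130 was higher by 1.77 ± 0.65 (adjusted p = 0.0435), a call lost with no filter (adjusted p = 0.0666), with the compared groups alone (adjusted p = 0.162) and without DAN3130 mature replicates 34 or 35 or JI63 mature replicates 40 or 41 (adjusted p from 0.0582 to 0.163). GRAS53 (Zm00001d027292, chromosome 1, 2019607 to 2021622) had 11.9, 9.82 and 0 (DAP 24), 32.7, 18.8 and 22.4 (DAP 35), and 0, 0 and 34.6 (mature) in DAN3130. In JI63 it had 41.5, 8.03 and 47.7 (DAP 24), 16.3, 25.2 and 27.6 (DAP 35), and 69.7, 70.4 and 63.3 (mature). The mature JI63 libraries were close together and above all the others, and 2 mature DAN3130 libraries had no read. The fitted difference was -4.38 ± 1.23 (adjusted p = 0.0115), lost in edgeR (adjusted p = 0.169), in DESeq2 (adjusted p = 0.082) and with the compared groups alone (adjusted p = 0.124). Of the rest, GRAS10 was lower in DAN3130, with -2.23 ± 0.53 (adjusted p = 0.00378), lost with the compared groups alone (adjusted p = 0.0899), and GRAS52 with -1.81 ± 0.68 (adjusted p = 0.0463), lost with no filter (adjusted p = 0.0831), with equal totals (adjusted p = 0.0941), in edgeR (adjusted p = 0.347), in DESeq2 (adjusted p = 0.261), with the compared groups alone (adjusted p = 0.24) and without DAN3130 mature replicates 33 or 34 or JI63 mature replicates 39, 40 or 41 (adjusted p from 0.0508 to 0.207). GRAS23 was higher by 1.22 ± 0.36 (adjusted p = 0.0163), lost with the compared groups alone (adjusted p = 0.186) and without DAN3130 mature replicate 35 or JI63 mature replicate 41 (adjusted p from 0.0536 to 0.0598).

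The change to maturity differed between the lines, IV minus III, at 3 members. It was higher in JI63 at GRAS76 and GRAS40 (7.92% of all tested loci) and lower at GRAS21 (5.9%). At an unadjusted p under 0.05 there were 5 higher and 3 lower (16% and 12.8% of all tested loci). Of the other members called in a single line for this step, none was called different between the lines: the adjusted p was 0.887 for GRAS19, 0.0944 for GRAS52, 0.115 for GRAS38, 0.47 for GRAS1, 0.155 for GRAS47 and 0.528 for GRAS67. Without DAN3130 mature replicate 35 the count was 8, of which 7 were higher in JI63, and edgeR called 1.

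The 7 members called in no comparison were GRAS2, GRAS31, GRAS32, GRAS46, GRAS49, GRAS65 and the locus of GRAS84 and GRAS82. GRAS49 stayed between 511 and 2085 normalized counts in all 18 libraries, and GRAS46 ranged from 14.2 in DAN3130 mature replicate 34 to 2657 in JI63 DAP 35 replicate 27, which was 5.64 times the mean of its partners.

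The DELLA gene dwarf plant8 (Zm00001d033680, chromosome 1, 270917765 to 270920487) rose to maturity in both lines. In DAN3130 its normalized counts were 340.0, 318 and 241 (DAP 24), 539.7, 515 and 447 (DAP 35), and 1779, 1654 and 5381 (mature), and in JI63 391, 317 and 392 (DAP 24), 621, 1879.8 and 491 (DAP 35), and 2369, 2932 and 3225 (mature). Mature libraries were above all immature ones of their line, and the highest immature library was again replicate 27, at 3.38 times the mean of its partners. It rose by 2.33 ± 0.45 in DAN3130 (adjusted p = 0.000498), in every setting tried, and by 1.76 ± 0.45 in JI63 (adjusted p = 0.00466), lost with equal totals (adjusted p = 0.0889). No line difference was called at any stage (adjusted p = 0.741, 0.296 and 0.817). The other DELLA gene, dwarf plant9 (Zm00001d013465, chromosome 5, 12228329 to 12230206), had 0 reads in all 18 libraries. The genes are close copies, and so the count of either is uncertain, since reads that match both could have been dropped or placed at dwarf plant8. The part of this was not tested.

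Loci named for making or inactivating gibberellin, or as gibberellin responsive, were taken by words in the gene names of the table, with 34 loci listed and 21 tested. The copalyl and kaurene loci were taken by name alone, and the part of each in gibberellin synthesis was not tested. No receptor was among them. In DAN3130 2 rose and 9 fell from DAP 35, and in JI63 2 rose and 10 fell (42.9% and 47.6% of the 21 fell, beside 31.5% and 27.8% of all tested loci), with a median change of -1.42 and -1.57 beside -0.43 and -0.36 over all tested loci. Between the immature stages the counts were 1 up and 0 down for DAN3130 (4.41% and 2.14% of all tested loci) against 2 up and 1 down for JI63 (4.27% and 4.82%). Between the lines, DAN3130 minus JI63, 0 were higher and 1 lower on DAP 24 (11.2% and 13.6% of all tested loci). The counts were 1 and 2 for DAP 35 (11.3% and 11.9%), and 1 and 5 in mature kernels (15.6% and 21.5%). II minus I gave 0 (0.706% and 1.66%), and IV minus III gave 1, lower in JI63 (5.9%). Among the synthesis genes, gibberellin 20-oxidase1 fell by 7.06 ± 1.19 in DAN3130 and fell by 3.94 ± 1.19 in JI63 (adjusted p = 0.000151 and 0.0131). Its means (± SD, n = 3) went from 623 ± 156 to 31.7 ± 54.9 in DAN3130 and from 638 ± 216 to 40.2 ± 10.5 in JI63. The SD of mature DAN3130 exceeded its mean, and the fitted size there depends on the pseudocount. These steps were not called different (IV minus III, 3.13 ± 1.68, adjusted p = 0.236). Another synthesis gene, gibberellin 20-oxidase4, was at 7862 ± 3402 (mean ± SD, n = 3) in mature DAN3130 and 1271 ± 506 in mature JI63, and was higher in DAN3130 by 2.62 ± 0.35 (adjusted p = 2.32e-05). The locus kaurene synthase4 rose between the immature stages, by 5.15 ± 0.69 in DAN3130 and 5.19 ± 0.69 in JI63 (adjusted p = 0.000266 and 0.000318). Gibberellin 2-oxidases inactivate the hormone, and most of those called from DAP 35 to maturity fell. In DAN3130 these were gibberellin 2-oxidase1, 2-oxidase2, 2-oxidase9 and 2-oxidase10, and in JI63 2-oxidase1, 2-oxidase2, 2-oxidase4 and 2-oxidase9. Only gibberellin 2-oxidase13 rose, in both lines, and 2-oxidase6 was called in neither. The level of gibberellin 2-oxidase1 fell by 5.39 ± 1.05 in DAN3130 and fell by 7.78 ± 1.05 in JI63 (adjusted p = 0.000535 and 2.38e-05), and that of gibberellin 2-oxidase13 rose by 4.54 ± 1.08 and 3.77 ± 1.08 (adjusted p = 0.00254 and 0.00967). The locus gibberellin responsive3 went from 208 ± 26.1 to 0.72 ± 1.25 in DAN3130, and in JI63 from 160.1 ± 13.7 to 0 in all 3 libraries, which is at least 68.4-fold lower (3 reads over the group).

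Known partners of SHORT-ROOT and SCARECROW, retinoblastoma-related proteins, D-type cyclins and indeterminate-domain factors, were sought by words in the gene names, and 10 loci were found and 9 tested. No D-type cyclin was among them, and the list includes indeterminate floral apex1, indeterminate gametophyte1 and sister of indeterminate spikelet1, which share a word but are not indeterminate-domain factors. From DAP 35 to maturity 0 went up by the test in either line, while 6 fell in DAN3130 and 3 fell in JI63 (66.7% and 33.3% of the 9 tested, beside 31.5% and 27.8% of all tested loci). These falls include indeterminate floral apex1 in both lines and indeterminate gametophyte1 in DAN3130, so they are not counts of known partners alone. For the other comparisons the counts higher and lower were 0 and 1 in I (4.41% and 2.14% of all tested loci) and 0 and 1 in II (4.27% and 4.82%). Between the lines they were 0 and 0 on DAP 24 (11.2% and 13.6%), 1 and 0 for DAP 35 (11.3% and 11.9%) and 0 and 3 for maturity (15.6% and 21.5%). They were 0 and 0 in II minus I (0.706% and 1.66%), and 2 and 0 in IV minus III (7.92% and 5.9%). The counts include sister of indeterminate spikelet1 between the lines at maturity and indeterminate floral apex1 in IV minus III. The cell-cycle regulator related to retinoblastoma2 fell by 1.67 ± 0.47 in DAN3130 and fell by 2.63 ± 0.47 in JI63 (adjusted p = 0.00775 and 0.000295). The locus indeterminate domain p10 fell by 1.50 ± 0.22 in DAN3130 (adjusted p = 4.69e-05) and changed by -0.40 ± 0.22 in JI63 (adjusted p = 0.155), and these steps differed by 1.10 ± 0.31 (adjusted p = 0.0292).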

How the data were processed

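Total RNA of whole kernels was sequenced in 18 libraries, 3 for each of 2 lines and 3 stages, grouped by the labels. The authors aligned the reads with HISAT2 2.1.0 to the B73 AGPv4 genome without regard to strand, so reads of a gene and of an antisense partner cannot be told apart, built loci with Cufflinks and Cuffcompare, and counted reads with HTSeq 0.11.2. The deposited table holds signal values, counts per locus that the authors normalized with DESeq2 size factors (version not given in the sources used here), which assume that most loci do not change. In every library 100% of the values were whole multiples of the value of 1 read within 0.1%, so reads were recovered. Depth was 9428728 to 133264978 reads in loci. The 26258 intron entries were left out of all tests. The pseudocount lowers the fold change of a low locus, but where some libraries of a group are at 0 the mean of logs can give a larger change than the pooled reads.

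From these values log2(value + 1) of the 29191 loci with a mean above 10 was fitted over all 6 groups (12 residual degrees of freedom) with limma 3.58.1 in R 4.3.3, with a mean-variance trend, and p-values were adjusted over all these loci in each of 9 comparisons. The tests are two-sided, and where replicates are not separate pools their p-values measure the spread between these libraries alone. Alternatives were pseudocounts of 0.5 and 5, no filter, libraries set to equal totals, edgeR 4.0.16 with TMM and DESeq2 1.42.0 on the recovered reads, the compared groups alone, the limits of the study (log2 change of at least 1 and unadjusted p under 0.05), and each library left out. A fit of the 12 immature libraries was added after seeing the data. Tests of the fits on simulated data are not reported here, and no result above relies on them. Values of every library are given for dwarf plant8, dwarf plant9, scarecrow1, scarecrow-like1 and, in each comparison, at most 3 called members with the largest change in each direction. The members and lists were chosen with earlier results of these data known. No sequence is printed, since none of the build of the table was used here.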

Additional observations from a re-analysis of the deposited data

Results flagged for a closer look

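The change from DAP 35 to maturity differed between the lines by the test of the difference (IV minus III) at 3 members, by 8.94 on the log2 scale at GRAS76, 1.70 at GRAS40 and -1.02 at GRAS21. The table also has separate entries for the introns of some loci, which none of the comparisons used. Over the 18 libraries reads were counted in those of GRAS45 (1243), GRAS37 (372), GRAS69 (355), GRAS75 (151), scarecrow1 (141), GRAS4 (77), GRAS70 (39), GRAS49 (27) and GRAS52 (16). GRAS75 had 10 reads in its exons, fewer than in its intron entry. Of the 372 intron reads of GRAS37, 368 were in the immature libraries and 4 in JI63 mature replicate 41, although its exon counts were highest at maturity.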

How the results depend on the processing

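No paired analysis was possible because the groups compared share no replicate number. Of the 58 called changes of members and dwarf plant8, 24 were called in every alternative that gave an adjusted p and 34 were lost in at least 1; 45 were called in edgeR, 46 in DESeq2 and 47 with equal totals, and none changed sign. DESeq2 gave no adjusted p for 3 called changes of GRAS76. In comparison I 4 members were called with no filter, 4 in DESeq2, 13 with the compared groups alone, 5 by the limits of the study and 9 in the 12 immature libraries. In II the counts were 6 with the compared groups alone and 7 in the immature libraries, and in III 6 with the compared groups alone. Between the lines on DAP 24 they were 6 with no filter, 9 with the compared groups alone and 6 in the immature libraries, and on DAP 35 they were 5 with no filter, 6 with equal totals, 5 in DESeq2 and 6 in the immature libraries. At maturity 4 were called with the compared groups alone. For II minus I the counts were 2 with no filter, 1 with equal totals, 2 with the compared groups alone and 2 in the immature libraries, and for IV minus III 1 in edgeR, 1 with the compared groups alone and 8 by the limits of the study. The causes were not tested, and the shares of all loci called in these alternatives were not counted. Leaving out each library in turn gave 0 to 1 calls in I, 1 to 3 in II, 13 to 18 in III, 9 to 13 in IV, 2 to 2 between the lines on DAP 24, 1 to 3 on DAP 35, 8 to 13 at maturity, 0 to 0 for II minus I and 2 to 8 for IV minus III. Depth limits the loci with few reads, such as GRAS86 in DAN3130.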
